A study of Mus musculus with 2 samples.

Results

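The genes described here encode intermediate filament proteins other than keratins. They are Vim, Des, Prph and Gfap (type III filaments), Nefl, Nefm and Nes (type IV filaments), and Lmna, Lmnb1 and Lmnb2 (the nuclear lamins). They were chosen by name, and each probe set that the platform annotation ties to exactly 1 of these symbols was taken, which gave 14 of the 12488 probe sets on the array. All 10 genes had a probe set, 6 of them 1 and 4 of them 2, and 0 probe sets with several symbols held a member.

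The study compared skin of newborn mice lacking keratin 5 (K5-/-, labelled ko_skin) with skin of newborn wild type mice (wt_skin), under a title that names inflammatory cytokines in a mouse model of epidermolysis bullosa simplex, a blistering disease. Total RNA of 6 animals per genotype was pooled, and each pool was read on 1 Affymetrix array. Strain, sex and the design of the knockout allele are not given in the sources used here, and the source name speaks of epidermis where title and protocol speak of skin. There are 2 arrays and no replicates, so each value below compares 1 pool with 1 pool and no test was possible.

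Intermediate filaments are rope-like polymers that give cells mechanical strength, and each cell type builds them from its own proteins. Keratins serve epithelial cells, vimentin mesenchymal cells, desmin muscle, and glial fibrillary acidic protein, peripherin and the neurofilament proteins serve glia and neurons. Lamins are the nuclear branch of the family: they form the lamina under the inner nuclear membrane, which anchors chromatin and membrane proteins. In skin, keratinocytes use keratins for their cytoplasmic filaments, while dermal fibroblasts, vessels, muscle and nerves supply the non-keratin ones.

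Of the 10 genes, 5 could be measured: Des, Nes, Lmna, Lmnb1 and Lmnb2. In knockout skin Lmnb1 was 1.64-fold lower than in wild type skin, both probe sets of Lmna were lower by less, and Nes, Des and Lmnb2 differed by under 1.12-fold. The single probe set of Vim and the probe sets of Prph, Gfap, Nefl and Nefm lay under the floor on both arrays. The floor was 246.7 signal units, the 40th percentile of all values, and weaker signals were raised to it because low MAS5 signals carry little information. A probe set above the floor on at least 1 array is called measured. Of the 14 probe sets 6 were, against 62.7% of all non-control probe sets, and these 6 were above it on both arrays.

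**Figure D1:**
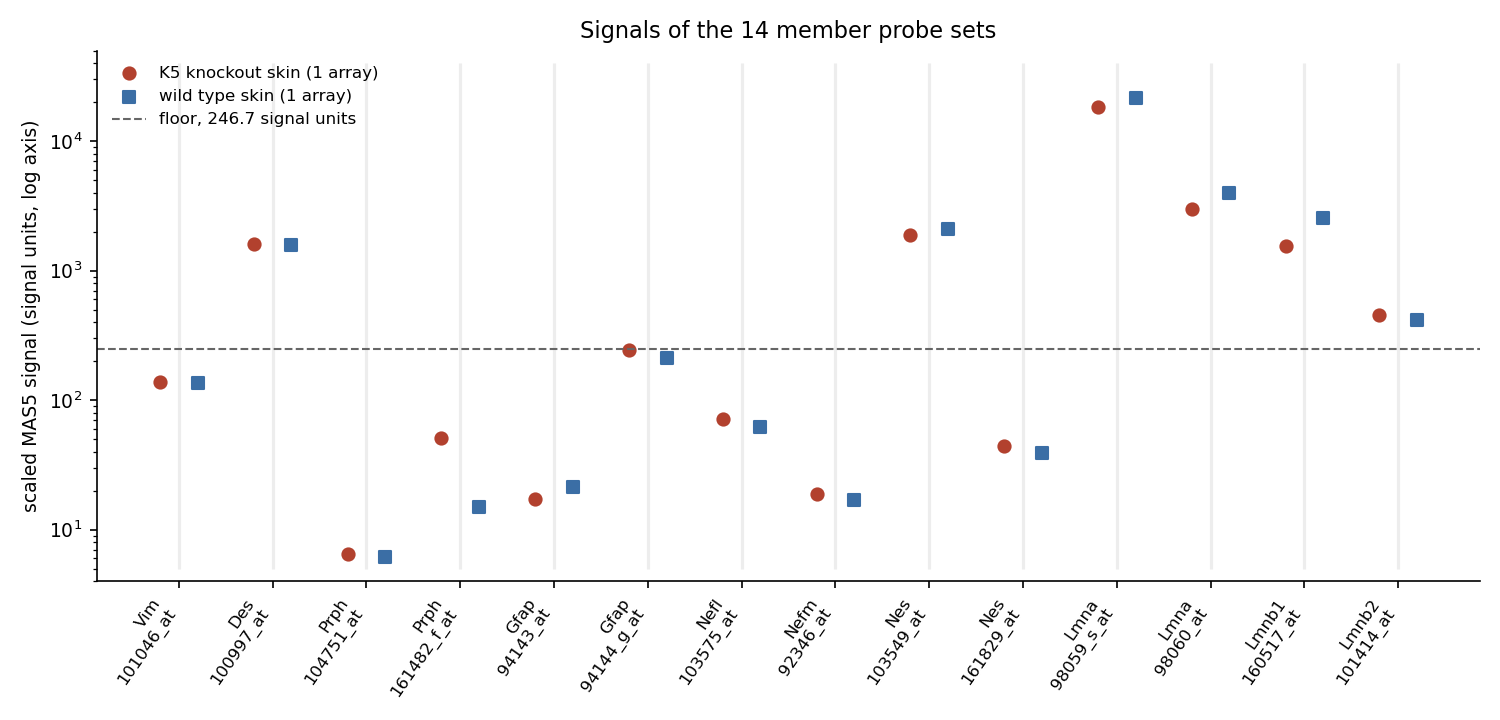
Scaled MAS5 signal of each of the 14 probe sets (log axis, signal units), with K5 knockout skin as circles left of wild type skin as squares, 1 array each; the dashed line is the floor of 246.7 signal units. Signals are to be compared between the arrays within a probe set, not between probe sets; 6 probe sets lie above the line on both arrays and 8 lie below it on both.

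Of the 6 measured probe sets, 0 differed at least 2-fold, against 2.28% of the 7792 measured probe sets on the array (178). With 6 probe sets, a share of that size leaves little room for any call. By sign, 4 were lower and 2 higher in the knockout, and 45.5% of all measured probe sets were lower. Their median log2 ratio of knockout over wild type was -0.20, beside 0.04 over all measured probe sets. With a pseudocount in place of the floor, which lets all 14 probe sets enter, the median was 0.01.

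Technical error could be estimated only from genes read by several probe sets. Within the 838 genes for which 2 or more probe sets exceeded the floor in both pools, log2 ratios had a standard deviation of 0.30, which leaves out animals, pools and hybridisations. By that measure 4 of the 6 member ratios lay within 1 standard deviation of 0, as did 58.0% of all measured probe sets. Lmnb1 was the 1 member farther than 2 standard deviations from 0, where 12.7% of all measured probe sets lay.

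**Figure D2:**
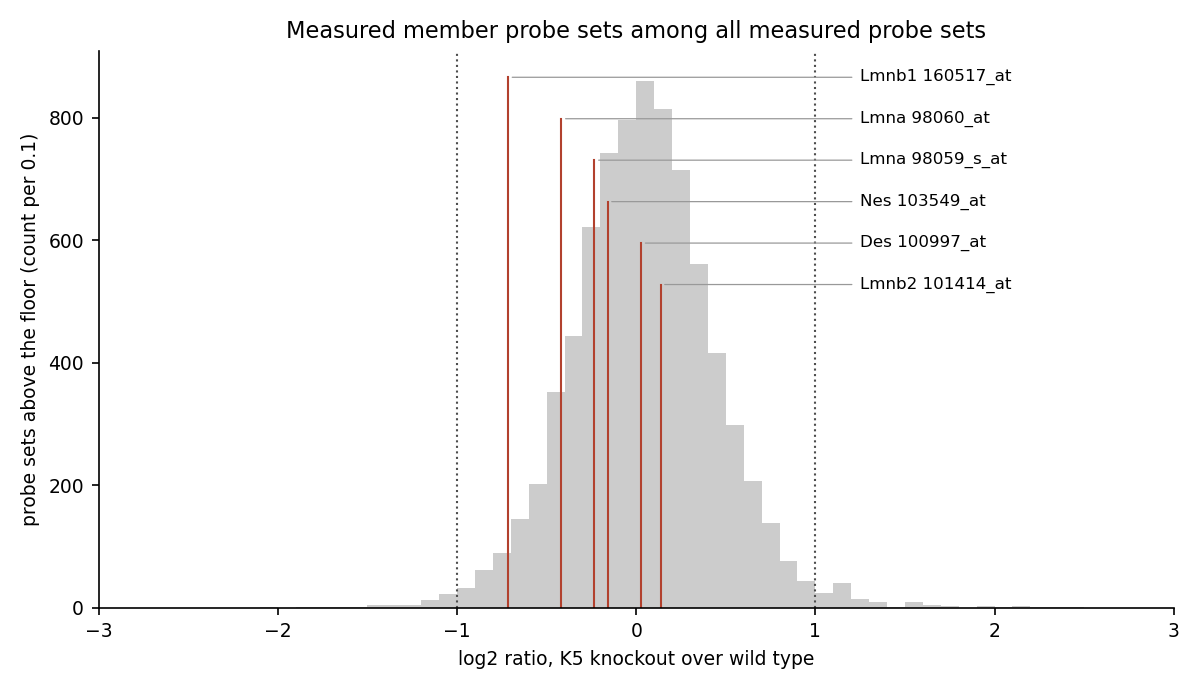
Histogram of the log2 ratio of K5 knockout over wild type for the 7792 probe sets above the floor on at least 1 array (count per bin of 0.1), with the 6 measured member probe sets as red lines whose heights carry no value; dotted lines mark 2-fold. All 6 lie between the dotted lines, and Lmnb1, at -0.72, lies farthest from the centre of the histogram.

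Lmnb1 and Lmna had the largest differences among the measured members. Lmnb1 encodes lamin B1, a B-type lamin that keeps its farnesyl anchor and stays at the nuclear membrane. Its probe set 160517_at read 1562 in knockout skin and 2566 in wild type skin, a log2 ratio of -0.72. Of the 7792 measured probe sets, 221 (2.84%) had a lower ratio, and the central 95% ran from -0.75 to 0.85, so Lmnb1 lay just inside the lower end of that range. No second probe set of the gene was on the array, so the difference has no check within these data.

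Lmna encodes lamins A and C by alternative splicing, and lamin A loses its farnesyl anchor during maturation. Probe set 98059_s_at read 18405 in knockout skin and 21636 in wild type skin, a log2 ratio of -0.23. Probe set 98060_at read 3005 in knockout skin and 4014 in wild type skin, a log2 ratio of -0.42. Both were lower in the knockout, and their ratios differed by 0.18, less than the median gap of 0.24 among 741 genes for which exactly 2 probe sets exceeded the floor in both pools. Both were designed on the same transcript accession, so they share a target and are not independent. The ending _s_at is Affymetrix's mark for probes that other transcripts may share.

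Lmnb2 encodes lamin B2, the other B-type lamin. Its probe set 101414_at read 459 in knockout skin and 418 in wild type skin, a log2 ratio of 0.14. The 2 B-type lamins thus had ratios of opposite sign, 0.85 apart on the log2 scale, at -0.72 for Lmnb1 and 0.14 for Lmnb2. The ratio of Lmnb2 was within the standard deviation of 0.30 between probe sets of a gene, so its sign is not settled. Lmnb2 read near the middle of all signals, at percentile 51.0 in knockout skin and 50.7 in wild type skin. It was under the floor on both arrays when that stood at the 60th percentile, and its ratio was 0.02 after quantile normalization and 0.01 after the lowess correction.

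The promoter windows of Lmna are shown because it was the only member with 2 measured probe sets, and both read lower in the knockout. Every other member with 2 probe sets had at least 1 under the floor, so none could be compared with it on this point. RefSeq (GRCm38.p6) promoter windows were at hand for 7 of the 10 members: Vim, Des, Prph, Gfap, Nes, Lmna and Lmnb2. Lmnb1, Nefl and Nefm are RefSeq genes too, but their windows were not in the set used here. Each window holds 300 bases around an annotated start. Those of Lmna lie on the minus strand, window A at chr3:88493263-88493562 and window B, upstream of it, at chr3:88503303-88503602. Capitals mark matches, on either strand, to CCAAT (the CCAAT box), CCGCCC (a GC box) or TATAAA (the TATA box), and no matches overlap.
Lmna window A: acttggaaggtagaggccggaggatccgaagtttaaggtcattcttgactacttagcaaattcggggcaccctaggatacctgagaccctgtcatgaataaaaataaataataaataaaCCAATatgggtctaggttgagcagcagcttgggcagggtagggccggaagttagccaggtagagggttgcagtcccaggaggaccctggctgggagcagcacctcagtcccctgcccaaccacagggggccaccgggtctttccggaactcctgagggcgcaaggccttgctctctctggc
Lmna window B: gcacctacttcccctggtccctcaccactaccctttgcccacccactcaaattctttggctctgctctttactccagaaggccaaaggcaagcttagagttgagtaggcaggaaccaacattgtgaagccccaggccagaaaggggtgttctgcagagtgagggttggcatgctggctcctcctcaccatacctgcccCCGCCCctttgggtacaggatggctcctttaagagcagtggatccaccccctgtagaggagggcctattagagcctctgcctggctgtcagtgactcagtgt
Window A holds 1 CCAAT match and window B 1 CCGCCC match, motifs found in 37.4% and 35.7% of 32851 RefSeq promoter windows of that length. TATAAA is in neither, and 13.6% of all windows have it. Among the other members, the window of Vim holds 1 TATAAA and 2 CCAAT matches, and that of Prph 1 TATAAA and 1 CCGCCC match. Those of Des and Nes hold 2 CCGCCC matches each, and 1 window of Lmnb2 holds 1. The window of Gfap holds none of these motifs. The arrays do not tell which Lmna start was used in these samples, and a match describes letters, not binding.

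Among type III filaments, Des encodes desmin, the filament protein of skeletal, cardiac and smooth muscle. Its probe set 100997_at read 1617 in knockout skin and 1586 in wild type skin, a log2 ratio of 0.03. Skeletal muscle markers on the same arrays were higher in knockout skin in 16 of 16 measured genes (18 on the array), against 53.9% of all measured genes. Their median log2 ratio was 0.24, with a range of 0.06 to 0.94 and 0 genes at least 2-fold different, beside a median of 0.04 over all measured genes. Among all 5976 measured genes, 1.54% were at least 2-fold higher, 0.703% at least 2-fold lower and 2.24% one or the other. The summed signal of that list was 142412 in knockout skin, against 118781 in wild type skin, and Acta1, skeletal muscle actin, read 41506 in knockout skin, against 39728 in wild type skin. Of 6 measured smooth muscle and pericyte markers, 3 were higher and 3 lower, with a median of 0.00 (0.12 with the mean over the probe sets of a gene) and a range of -0.67 to 0.55. Acta2, smooth muscle actin, read 1606 in knockout skin, against 2559 in wild type skin. Des had a lower ratio than every measured skeletal muscle marker, with a gap of 0.04 to the nearest, Acta1, which is less than the spread between probe sets of a gene. In bulk skin, a difference in the number of cells of a type and a difference in RNA per cell cannot be told apart.

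Vim encodes vimentin, the filament protein of fibroblasts, endothelium and leukocytes. Its probe set 101046_at read 139 in knockout skin and 136 in wild type skin, so both arrays were under the floor and no fold is given. Markers of cell types that make vimentin are given beside it. All 11 fibroblast markers on the array were measured, with a summed signal of 212362 in knockout skin, against 183421 in wild type skin, and Col1a1, the collagen I gene, read 48707 in knockout skin, against 39256 in wild type skin. Of the fibroblast markers 8 were higher and 3 lower, with a median log2 ratio of 0.24, a range of -0.95 to 1.02 and 1 gene, Pdgfra, at least 2-fold higher; with the mean over the probe sets of a gene the median was 0.06 and Pdgfra was under 2-fold, as it was with the pseudocount. Of 7 measured endothelial markers 4 were higher and 3 lower, with a median of 0.17, a range of -0.22 to 1.05 and 1 gene, Vwf, at least 2-fold higher. The endothelial median was -0.12 under a floor at the 60th percentile, where Vwf was unmeasured, and Vwf was under 2-fold with the pseudocount, quantile normalization and the lowess correction. Cd34 read 1791 in knockout skin, against 1922 in wild type skin. Of 9 macrophage and monocyte markers on the array, 7 were measured. All 7 were higher in the knockout, against 53.9% of all measured genes. Their median was 0.58 (0.37 with the pseudocount), with a range of 0.22 to 0.97. Cd14 read 2624 in knockout skin, against 1750 in wild type skin. The 2 markers under the floor on both arrays read lower in knockout skin. Under a floor at the 25th percentile, which both Vim signals exceed, its log2 ratio was 0.03. Why the probe set read below the main floor was not tested.

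Prph, the filament gene of peripheral neurons, and Gfap, that of astrocytes and non-myelinating Schwann cells, were below the floor too. Prph read 6.50 in knockout skin, against 6.10 in wild type skin from 104751_at, and 51.0 in knockout skin, against 15.0 in wild type skin from 161482_f_at. Gfap read 17.1 in knockout skin, against 21.2 in wild type skin from 94143_at, and 245 in knockout skin, against 212 in wild type skin from 94144_g_at. The last of these was the member nearest to the floor, at 99.4% of it on the knockout array; under a floor at the 25th percentile its log2 ratio was 0.21. Both Gfap probe sets were designed on the same accession.

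Nefl and Nefm, the light and medium neurofilament subunits of axons, were likewise unmeasured. Nefl (103575_at) read 72.0 in knockout skin, against 62.5 in wild type skin, and Nefm (92346_at) 19.0 in knockout skin, against 16.8 in wild type skin. The cell bodies of the neurons that innervate skin lie in ganglia outside it. Why Nefl and Nefm read below the floor was not tested. Of 10 neuron markers on the array 5 were under the floor on both arrays: Stmn3, Scn9a and the synaptic genes Snap25, Syp and Syt1. The 5 measured were Uchl1, Gap43, Stmn2, Tubb3 and Eno2, of which 2 were higher and 3 lower. Their median was -0.10, with a range of -0.46 to 0.81. That median was 0.25 with plain probe sets only and 0.06 with the pseudocount. Tubb3, which encodes a neuronal tubulin and was read by a probe set with the family ending _f_at, read 5547 in knockout skin, against 6649 in wild type skin. Of 8 Schwann cell markers on the array 5 were measured, 1 higher and 4 lower, with a median of -0.17 and a range of -0.24 to 0.17; the median was 0.03 with the pseudocount and 0.07 under a floor at the 25th percentile. Pmp22, a myelin protein gene, read 5068 in knockout skin, against 5714 in wild type skin.

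Nes encodes nestin, known from neural progenitors, developing muscle, vessels and hair follicles. Probe set 103549_at read 1887 in knockout skin and 2108 in wild type skin, a log2 ratio of -0.16, within 1 standard deviation of the spread between probe sets. The other Nes probe set, 161829_at, read 44.0 in knockout skin, against 39.4 in wild type skin, under the floor on both arrays. Nes thus rests on 1 of its 2 probe sets.

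Of the 8 member probe sets under the floor, 7 read higher in the knockout and 1 lower. Of all 4630 non-control probe sets with both signals under the floor, 65.7% read higher on the knockout array.

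Proteins that work with the lamins were counted from a fixed list of lamina-associated and lamin-processing genes. Of 22 listed, 13 were on the array and all 13 were above the floor on at least 1 array: 9 were lower and 4 higher in knockout skin, with 0 at least 2-fold different. Their median log2 ratio was -0.17, beside 0.04 over all measured genes, of which 46.1% were lower. The lowest ratio was that of Cbx5, which encodes the heterochromatin protein HP1 alpha, with 691 in knockout skin, against 1081 in wild type skin (-0.64). Rce1, the protease that trims farnesylated lamins, followed with 719 in knockout skin, against 1085 in wild type skin (-0.59). The highest were Icmt, the methyltransferase that acts on the same carboxy terminus, with 841 in knockout skin, against 719 in wild type skin (0.23), and Sun1, a linker of lamina and cytoskeleton, with 1595 in knockout skin, against 1376 in wild type skin (0.21). The farnesyltransferase subunit genes Fntb and Fnta had log2 ratios of -0.33 and 0.21, near or within the standard deviation of 0.30 between probe sets of a gene, as was that of Icmt.

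Cell cycle genes were lower on the knockout array alongside Lmnb1. Of 20 measured genes of a proliferation list (24 listed, 21 on the array), 19 were lower and 1, Mki67, was higher. Of all measured genes 46.1% were lower. The list had a median log2 ratio of -0.69, beside 0.04 over all measured genes, and a range of -1.12 to 0.17. Its 1 gene at least 2-fold lower was Mad2l1, where 0.703% of all measured genes were. Its summed signal was 33489 in knockout skin, against 52479 in wild type skin. Pcna, the replication clamp gene, read 3594 in knockout skin, against 6866 in wild type skin. Lmnb1, at -0.72, lay close to the median of the list. The part of these genes in the Lmnb1 difference was not tested.

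Cytoplasmic filament partners were counted from a second fixed list. It holds cytolinkers, chaperones, further filament proteins and other proteins tied to filaments, such as filaggrin and a kinesin motor. Of 22 listed, 15 were on the array and 11 were measured, 6 higher and 5 lower, with a median log2 ratio of 0.11 and 0 at least 2-fold different. The highest was Flg, which encodes filaggrin, the protein that bundles keratin filaments in the cornified layer, with 39544 in knockout skin, against 28471 in wild type skin (0.47). Next was Kif5b, a kinesin motor gene, with 1483 in knockout skin, against 1218 in wild type skin (0.28). The plakin cytolinker Plec, which ties filaments to hemidesmosomes, read 1998 in knockout skin, against 1644 in wild type skin (0.28). The lowest were Mtm1, a phosphoinositide phosphatase gene whose protein binds desmin, with 2605 in knockout skin, against 4596 in wild type skin (-0.82), and Fam83h, which acts on keratin organisation, with 1382 in knockout skin, against 1853 in wild type skin (-0.42). Mtm1 was read by a probe set with the ending _f_at, given to probes that match a sequence family. The heavy neurofilament gene Nefh and the internexin gene Ina, type IV relatives from this list that were on the array, were below the floor on both arrays.

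**Figure D3:**
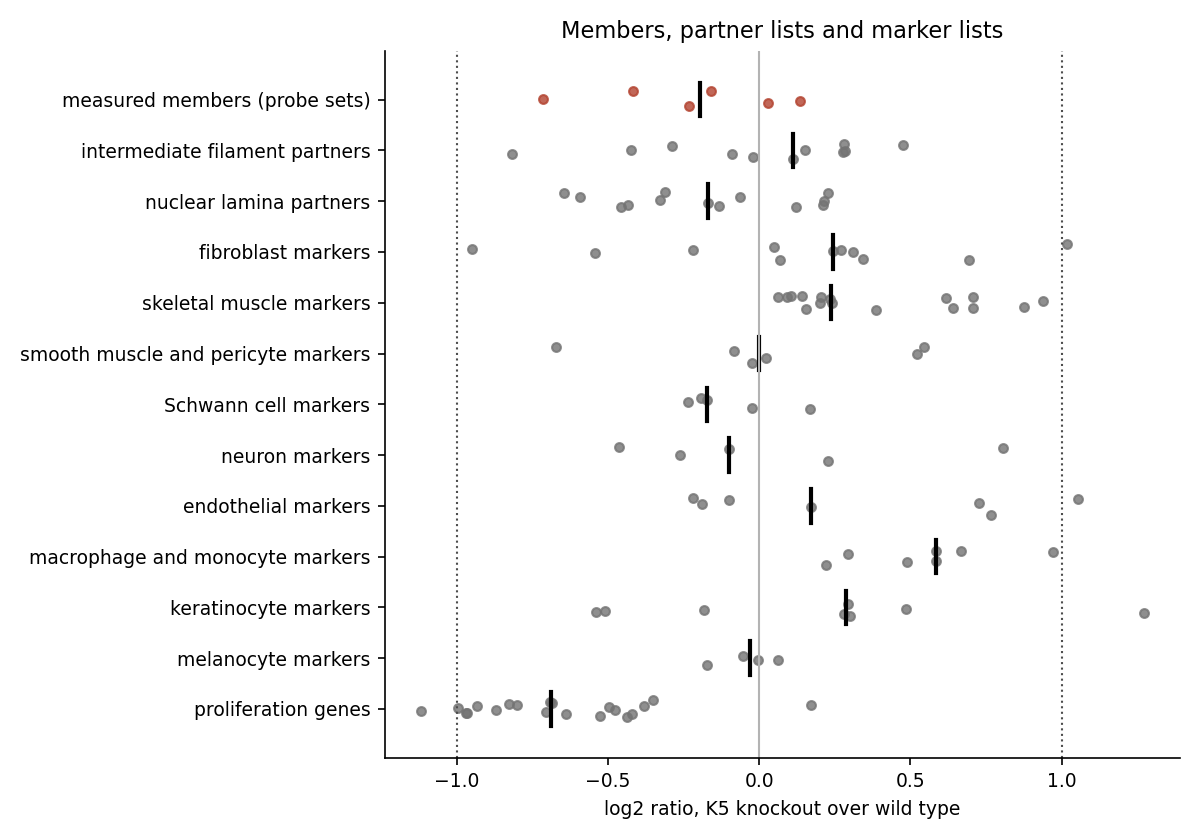
Log2 ratio of K5 knockout over wild type for the 6 measured member probe sets (red) and for the measured genes of 12 partner and marker lists (grey, 1 probe set a gene); black bars are medians and dotted lines mark 2-fold. The members' median is -0.20; skeletal muscle and macrophage markers lie entirely above 0, and 19 of 20 proliferation genes lie below it.

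As a check of the tissue, 8 of 11 keratinocyte markers on the array were measured, 5 higher and 3 lower, with a median of 0.29, a range of -0.54 to 1.27 and 1 gene, Ivl, at least 2-fold higher. Lor, the loricrin gene of the cornified layer, read 55053 in knockout skin, against 44917 in wild type skin. The fibroblast marker Col1a1 read 48707 in knockout skin, against 39256 in wild type skin. The skeletal muscle marker Acta1 read 41506 in knockout skin, against 39728 in wild type skin. Both pools thus held RNA from beyond the epidermis that the source name gives. The basal keratin genes Krt5, Krt14 and Krt15 lay under the floor on both arrays, with Krt5 at 81.2 in knockout skin, against 46.6 in wild type skin, so the targeted gene gives no check of the labels. Krt14 and Krt15 read 27.0 and 12.9 in wild type skin, so the basal keratins fail as markers there too. Whether their probe sets report these transcripts was not tested. Of 4 measured melanocyte markers 1 was higher and 3 lower, with a median of -0.03 (0.03 under a floor at the 25th percentile) and a range of -0.17 to 0.06, and Dct, a melanin synthesis gene, at 3379 in knockout skin, against 3807 in wild type skin.

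The member ratios kept their sign under each processing alternative that gave them a value. Only quantile normalization and the lowess correction could have turned a sign. The other alternatives leave these ratios as they are, pull them towards 0 or hardly move them. Lmnb1 stayed between -0.72 and -0.65 and Lmna 98060_at between -0.42 and -0.36. Lmna 98059_s_at ran from -0.23 to -0.16, Nes from -0.18 to -0.15, Des from 0.01 to 0.03 and Lmnb2 from 0.01 to 0.14.

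**Figure D4:**
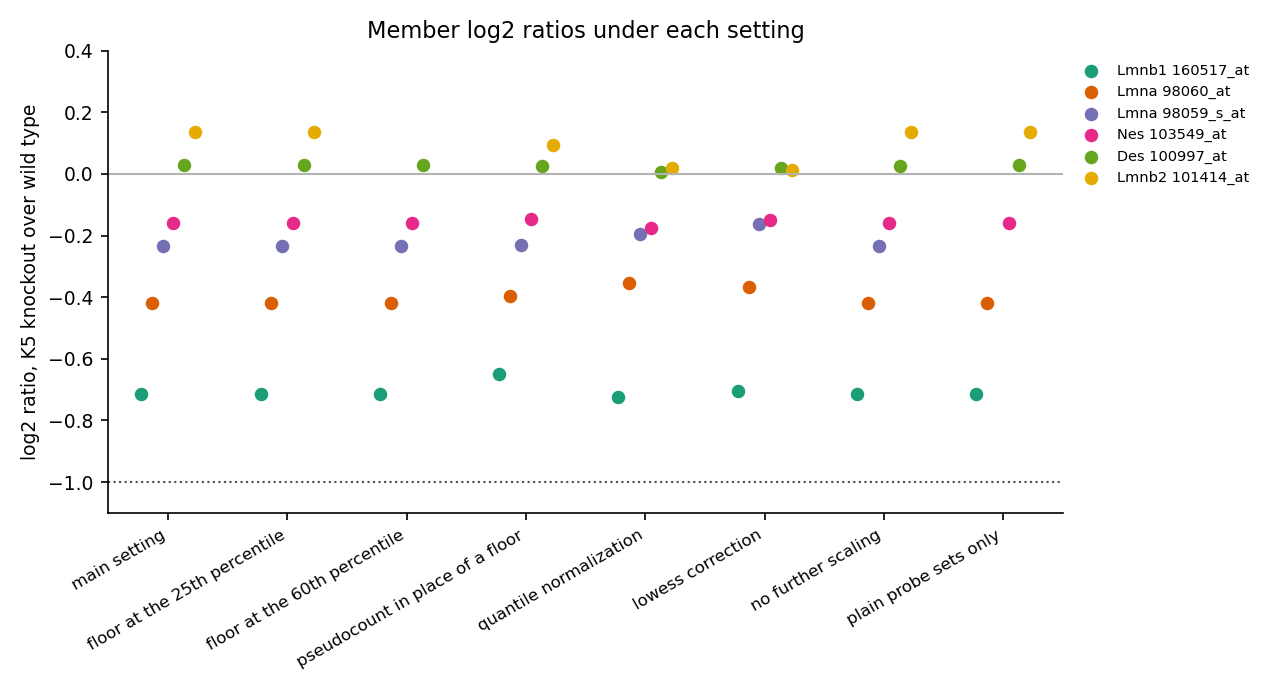
Log2 ratio of K5 knockout over wild type for each of the 6 measured member probe sets (colours) under the main setting and 7 alternatives; the dotted line marks 2-fold lower. Lmnb1 lies lowest under every setting shown, between -0.72 and -0.65; Lmnb2 has no point under a floor at the 60th percentile, and Lmna 98059_s_at none with plain probe sets only.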

How the data were processed

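RNA pools of K5 knockout and wild type skin were read on 1 array each. The authors deposited intensities, 1 linear signal per probe set; the submitters' processing notes name MAS5, and its version, scaling target and detection calls are not given in the sources used here. Since MAS5 gives arrays a common overall level, total RNA per cell cannot be compared. From the deposited intensities, both arrays were brought to a shared 2% trimmed mean of non-control probe sets (factors 1.00015 for the knockout and 0.999853 for the wild type), values under the 40th percentile were raised to it, and log2 ratios of knockout over wild type were taken with pandas 2.3.3 and numpy 2.4.6 in Python 3.11.15. A probe set above the floor on at least 1 array counted as measured. Member signals are printed as deposited, other signals after scaling.

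Members were described by every probe set. List genes were described by the probe set with the highest mean. Of 12422 non-control probe sets, the platform annotation gave 1 symbol for 10833, several for 396 and none for 1193. All 10 member symbols matched RefSeq (GRCm38.p6). The array files name no build, so the only coordinates printed are those of the RefSeq promoter windows. With 1 array per group no test was run. Precision is limited by the number of arrays. The ratio step was tested on simulated data, with known differences placed only on probe sets well above the floor. How the floor acts on differences near it was not tested. Alternatives were floors at the 25th and 60th percentile, a pseudocount of 200, quantile normalization, lowess correction (statsmodels 0.14.6), no further scaling, plain probe sets and other rules for several probe sets of a gene.

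Members and lists were chosen with earlier results of these data known. Named genes were all members, the 2 highest and 2 lowest ratios of each partner list where both pools exceeded the floor, any partner past 2-fold, and the gene with the highest signal of each marker list. Fntb, Fnta, Plec, Nefh, Ina, Mki67, Mad2l1, Pdgfra, Vwf, Ivl, the neuron markers other than Tubb3 and the basal keratins were named after their values were seen.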

Additional observations from a re-analysis of the deposited data

How the results depend on the processing

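No paired analysis was possible because each group has 1 array, and for the same reason no replicate could be left out. Over 40 alternative values of the 6 member ratios, 0 changed sign, and the count of members at least 2-fold different was 0 under each alternative. Only the values from quantile normalization and the lowess correction could have changed sign, so the count of 40 overstates this check. The members' median of -0.20 ranged from -0.23 to 0.01 over its alternatives; the highest came with the pseudocount, where the 8 probe sets under the floor enter with ratios pulled towards 0. The count of all measured probe sets at least 2-fold different, 178, was 444 with the floor at the 25th percentile, 73 at the 60th and 86 with the pseudocount. Of 12 lists, 5 had a median of the other sign under at least 1 alternative: Schwann cell, endothelial, melanocyte, neuron, and smooth muscle and pericyte markers. The neuron marker median of -0.10 was 0.25 with plain probe sets only, a shift near the spread between probe sets, with the cause not tested. The fibroblast median of 0.24 was 0.06 with the mean over the probe sets of a gene. The fibroblast list had 0 to 2 genes at least 2-fold different, the endothelial list 0 to 1, the skeletal muscle list 0 to 1 and the proliferation list 1 to 2. Signals under the floor limit what can be said of Vim, Prph, Gfap, Nefl and Nefm. Lmnb2 is limited too, since it fell under the floor at the 60th percentile.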
